A study of Mus musculus with 12 samples.

Results

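Genes that attach coenzyme A (CoA) to short and medium carboxylic acids, conjugate the products to glycine or carboxylate propionyl-CoA were examined in mouse liver by RNA sequencing. The set held 10 genes, chosen by symbol from the 41128 genes of the deposited table: the acyl-CoA synthetases Acss1, Acss2, Acss3, Acsm1, Acsm2, Acsm3 and Acsm5, the glycine N-acyltransferase Glyat, and the propionyl-CoA carboxylase subunits Pcca and Pccb. Each symbol matched 1 row. All mice were C57BL/6 littermates born germ-free. At weaning, at about 21 days, germ-free (GF) mice stayed in sterile isolators, while conventionalized (CV) mice went to cages with used bedding from the same facility, and all livers were taken 3 weeks later at 6 weeks of age. Per the labels, each condition held 3 male (M) and 3 female (F) mice, with 1 library per mouse, and M and F stand for the labelled sex. Neither diet, cage nor the composition of the acquired microbes was given in the labels, so CV covers the whole move out of the isolator.

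Short-chain acids such as acetate, propionate and butyrate are made by gut microbes from fibre, and they reach the liver through the portal vein. A liver cell can use such an acid only after an acyl-CoA synthetase has joined it to CoA. Benzoate, which arises from plant and microbial aromatic compounds, is activated in the same way, and Glyat then passes the benzoyl group to glycine to give hippurate for excretion, while propionyl-CoA is carboxylated by the biotin enzyme built from Pcca and Pccb and enters the citric acid cycle as succinyl-CoA.

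Promoter sequences of the 5 genes that differed between CV and GF over both sexes are shown here, because the question which letters their start regions share can be put to them directly. Each is the 250 bases before the RefSeq gene start on GRCm38.p6, read 5′ to 3′ on the gene's own strand: Acss2 at chr2:155517793-155518042 (+), Acsm1 at chr7:119617562-119617811 (+), Glyat at chr19:12633058-12633307 (+), Pcca at chr14:122534078-122534327 (+) and Pccb at chr9:101034885-101035134 (-). Capitals mark matches on either strand to the GC box, spelled GGGCGG, to the CCAAT box of that spelling, to the TATA box, searched as TATAAA, to the palindromic E-box, searched as CACGTG, or to the sterol element, searched as TCACNCCAC. No match overlapped another in these windows.
Acss2: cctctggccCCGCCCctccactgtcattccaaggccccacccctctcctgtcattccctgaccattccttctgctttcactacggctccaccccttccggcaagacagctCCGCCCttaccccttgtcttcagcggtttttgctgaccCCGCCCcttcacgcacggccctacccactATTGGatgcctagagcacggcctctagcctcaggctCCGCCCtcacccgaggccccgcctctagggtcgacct
Acsm1: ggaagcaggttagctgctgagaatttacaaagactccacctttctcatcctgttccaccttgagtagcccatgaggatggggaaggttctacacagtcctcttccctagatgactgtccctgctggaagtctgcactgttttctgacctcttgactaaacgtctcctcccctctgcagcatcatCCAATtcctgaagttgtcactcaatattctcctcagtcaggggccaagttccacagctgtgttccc
Glyat: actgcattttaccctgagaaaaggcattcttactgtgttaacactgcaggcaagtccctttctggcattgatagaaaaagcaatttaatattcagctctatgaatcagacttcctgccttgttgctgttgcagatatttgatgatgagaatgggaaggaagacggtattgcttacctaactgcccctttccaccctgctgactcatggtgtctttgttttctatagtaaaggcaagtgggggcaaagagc
Pcca: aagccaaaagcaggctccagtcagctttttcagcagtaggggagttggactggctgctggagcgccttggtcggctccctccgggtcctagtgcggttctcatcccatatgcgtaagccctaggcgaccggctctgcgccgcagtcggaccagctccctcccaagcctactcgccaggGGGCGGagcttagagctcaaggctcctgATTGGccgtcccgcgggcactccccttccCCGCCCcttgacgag
Pccb: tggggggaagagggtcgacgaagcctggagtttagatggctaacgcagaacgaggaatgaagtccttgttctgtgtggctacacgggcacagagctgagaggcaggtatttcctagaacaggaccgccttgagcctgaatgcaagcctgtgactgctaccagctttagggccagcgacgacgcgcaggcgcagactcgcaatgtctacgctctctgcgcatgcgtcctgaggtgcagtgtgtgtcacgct

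The 5 windows shared no motif. The Acss2 window held 4 GC boxes and 1 CCAAT box, the Pcca window held 2 GC boxes and 1 CCAAT box, and the Acsm1 window held 1 CCAAT box. In the Glyat and Pccb windows none of the 5 searched motifs was found. Of all 32851 RefSeq windows of this length, 32.7% held the GC box, 33.8% the CCAAT box, 12.4% the TATA box, 6.02% the E-box and 1.05% the sterol element. A base composition richer in G and C set Pcca (64.8%) and Acss2 (64.0%) apart from Glyat (42.8%), with a median of 52.4% over all windows. Entries existed for 9 of the 10 symbols, Pcca had 2 of which the one at its annotated gene start is shown, and a match in letters is a description of the window only. The Acsm1 window is not at its annotated gene start, chr7:119607026, but lies inside the annotated gene.

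Values are the deposited normalized expression signal, that is, reads per gene divided by 1 size factor per library, and they compare libraries but not genes of unequal length. Libraries held 5993619 to 15290835 reads. In GF libraries 12.6% ± 2.85 (SD, n = 6) of reads were mitochondrial ribosomal RNA (mt-Rnr1 plus mt-Rnr2), against 3.12% ± 2.32 in CV libraries, and 7 very abundant loci (Lars2, mt-Rnr1, mt-Rnr2, Mir6236 and 3 predicted genes) took 55.2% ± 12.1 and 11.6% ± 7.81. The library labelled CV male 3 went against its label: it had an Xist value of 2382, and 0 reads over Uty, Eif2s3y, Kdm5d and Ddx3y, which lie on the Y chromosome. Xist was 4.68 and 11.1 in the other CV males, 1045 to 1090 in CV females and 7607 to 11928 in GF females. The library labelled CV male 3 is counted with M as labelled, and values without it are given beside the results that turn on it. Hepatocyte markers were abundant throughout, with a summed value of 113968 to 488036 in GF and 416974 to 624104 in CV libraries for Alb, Apoa1, Apob, Ttr, Serpina1e, Hnf4a, Cps1, Tat and Cyp2e1, of which 5 of 9 rose in CV. Of all tested genes 32.3% were called higher and 28.7% lower. Erythrocyte markers (4 of 5, summed value 2777 to 32885 in GF and 916 to 3159 in CV) and lymphocyte markers (4 of 4 tested of 7, 108 to 184 and 30.9 to 43.7) fell. Of the Kupffer cell and macrophage markers 3 of 7 rose (773 to 1576 in GF and 829 to 1859 in CV), of the sinusoidal endothelium markers 2 of 6 fell (1259 to 3699 and 544 to 1585), of the stellate cell and fibroblast markers 2 of 7 rose and 1 fell (1502 to 3131 and 1784 to 3239), and of the bile duct markers 0 of 5 passed (453 to 1059 and 527 to 1616). Kidney tubule markers, of a tissue that also makes several of these enzymes, had 0 reads in GF and 5 reads in CV libraries in all. The part of these marker and composition shifts in the results was not tested, and in bulk tissue fewer cells of a type and less RNA per cell cannot be told apart.

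Over both sexes, 5 of the 9 tested genes were higher in CV than in GF livers and 0 were lower. Those that rose were Acss2, Acsm1, Glyat, Pcca and Pccb, by 1.78- to 2.39-fold. Acss3, Acsm2, Acsm3 and Acsm5 did not pass the test, and Acss1 fell under the minimum mean value of 10. The test was limma on log2(value + 1) over 11782 genes with Benjamini-Hochberg adjustment, in which 61.1% of all genes were called and 32.3% were called higher in CV. The median log2 change was 0.86 for the 9 genes and 0.07 for all genes tested. Within F libraries the same 5 genes passed (55.8% of all genes were called and 29.8% called higher), with a median of 1.23 against 0.08. Within M libraries only Acsm1 and Pccb passed (29.5% called and 14.1% called higher), with a median of 0.72 against 0.06. That count of 2 ranged from 0 to 3 when single libraries were left out, and it was 0 without GF male 3, CV male 1, CV female 2 or CV female 3, and 1 without GF male 1, CV male 2 or CV female 1. The gene left without GF male 1 was Acss3 (1.49, adjusted p = 0.0429, limma), and without CV male 2 or CV female 1 it was Acsm1. The count was 3 without GF female 2 or without the library labelled CV male 3. With that CV library left out the genes were Acss2, Acsm1 and Glyat, and Pccb did not pass. For the difference between the M and F changes 0 of 9 genes and 0% of all genes passed in limma, and 0 of the 9 genes passed by edgeR or DESeq2. Of the 9 genes, 0 had an unadjusted p under 0.05 in limma.

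**Figure D1:**
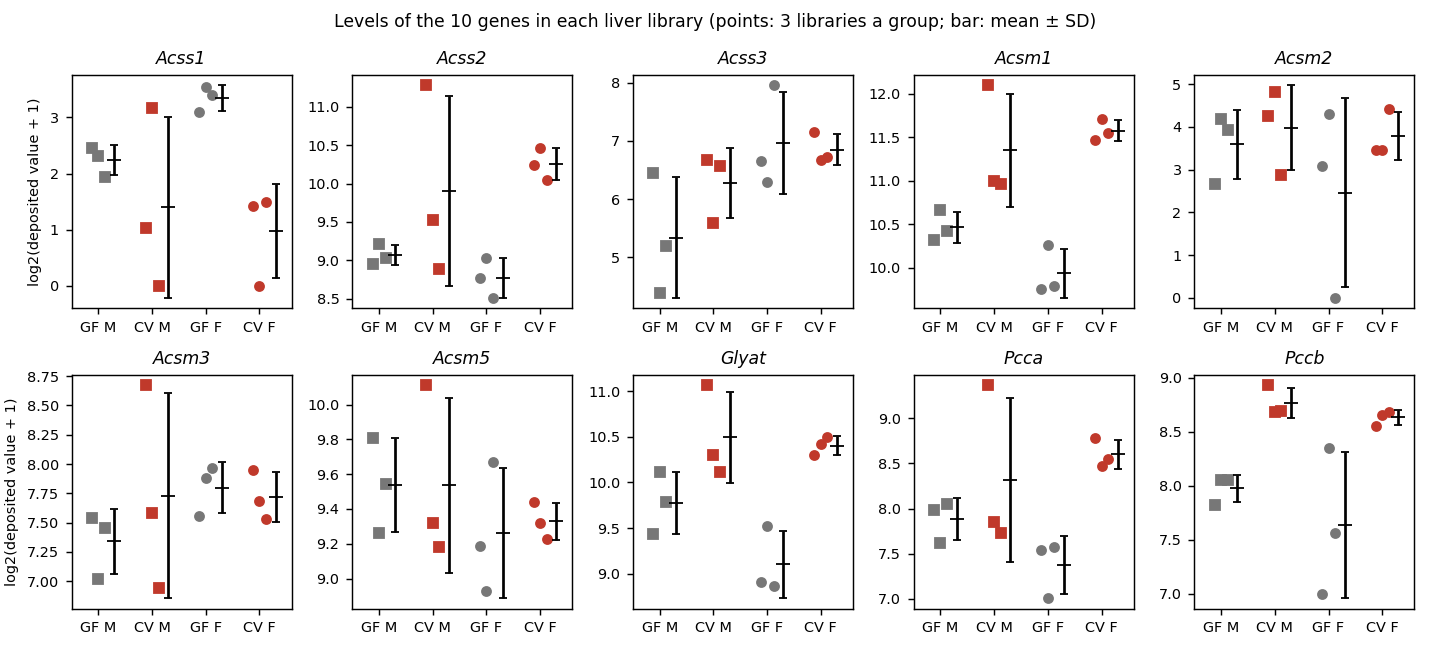
Level of each of the 10 genes, as log2(deposited value + 1), in the 3 libraries of each group (points) with the group mean ± SD (bars). In Acsm1, Glyat and Pccb every CV point lay above every GF point of the same sex, while Acsm5 and Acsm3 overlapped and the first CV male was the highest point in 7 of the 10 panels.

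Acss2 encodes the acetyl-CoA synthetase of cytosol and nucleus, which turns free acetate into acetyl-CoA. In F mice its values were 433, 521 and 364 in GF and 1208, 1413 and 1057 in CV libraries. Every CV female was above every GF female, and the log2 change was 1.48 ± 0.42 (SE; adjusted p = 0.00652, limma). In M mice the values were 496, 591 and 522 in GF and 2492, 735 and 473 in CV libraries. A single CV male carried most of that difference, since the others were close to the GF range and the library labelled CV male 3 lay below all GF males. The change in M, 0.83 ± 0.42, did not pass (adjusted p = 0.14). Leaving out the library labelled CV male 3 gave 1.34 (adjusted p = 0.0198), and leaving out CV male 1 gave 0.14 (adjusted p = 0.706). Over both sexes the change was 1.16 ± 0.29 (2.23-fold, adjusted p = 0.00285), and the 5 genes passed whichever library was left out. For Acss2 that change was 0.81 without CV male 1 and 1.41 when the library labelled CV male 3 was dropped.

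The related Acss3 and Acss1 gave no call at the minimum value used. Acss3, a mitochondrial enzyme with a preference for propionate, had values of 86.0, 20.0 and 35.4 in GF males, 101, 46.9 and 93.6 in CV males, 99.6, 77.1 and 247 in GF females and 141, 101 and 104 in CV females. Groups overlapped in both sexes, and the log2 change over both was 0.41 ± 0.34 (adjusted p = 0.308, limma), with 0.94 ± 0.48 in M (adjusted p = 0.149) and -0.12 ± 0.48 in F (adjusted p = 0.844). Acss1, the mitochondrial acetyl-CoA synthetase, was close to the limit of detection, with 0 to 10 reads per library and 2 CV libraries without a read. Its values were 4.48, 3.99 and 2.83 in GF males, 1.04, 7.95 and 0 in CV males, 7.55, 10.6 and 9.58 in GF females and 1.68, 0 and 1.81 in CV females. The CV females were thus below the GF females in value, on 0 to 4 reads against 4 to 5 reads. With the minimum mean value lowered to 1, which admitted Acss1 among 16190 genes, its log2 change was -1.61 ± 0.51 over both sexes (adjusted p = 0.0134), -2.38 ± 0.72 in F (adjusted p = 0.0118) and -0.84 ± 0.72 in M (adjusted p = 0.431). So few reads make its size uncertain.

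Acsm1 encodes a medium-chain acyl-CoA synthetase of the mitochondrial matrix that accepts butyrate and benzoate. GF males had values of 1276, 1622 and 1368, and CV males 4377, 2038 and 1991. GF females had 868, 1229 and 884, and CV females 2824, 3342 and 2997. CV libraries were above GF libraries without overlap in both sexes. The log2 change was 1.63 ± 0.30 in F (3.11-fold, adjusted p = 0.000288, limma) and 0.88 ± 0.30 in M (1.84-fold, adjusted p = 0.0361), and 1.26 ± 0.21 over both (adjusted p = 9.64e-05). In M the call was lost without CV male 1 (0.51, adjusted p = 0.127), GF male 1 (0.81, adjusted p = 0.118), GF male 3 (0.86, adjusted p = 0.100), CV female 2 (adjusted p = 0.0513) or CV female 3 (adjusted p = 0.0517), and kept when the library labelled CV male 3 was dropped (1.08, adjusted p = 0.026).

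None of its 3 relatives passed. Acsm5 had values of 895, 613 and 745 in GF males, 1104, 637 and 580 in CV males, 583, 487 and 813 in GF females and 692, 638 and 598 in CV females. Groups overlapped in both sexes, with CV male 1 above and the library labelled CV male 3 below all GF males. The log2 change over both sexes was 0.03 ± 0.20 (adjusted p = 0.897, limma). Acsm3 had 185, 129 and 174 in GF males, 406, 191 and 122 in CV males, 187, 234 and 249.2 in GF females and 247, 204 and 184 in CV females, a change of 0.16 ± 0.24 (adjusted p = 0.583). Both sexes overlapped here too. Acsm2, a synthetase of the benzoate-activating kind that is typical of kidney and liver, was barely detected at 0 to 35 reads per library, with values of 5.37 to 17.3 in GF males, 6.36 to 27.0 in CV males, 0 to 18.6 in GF females and 10.1 to 20.5 in CV females, and a change of 0.86 ± 0.61 (adjusted p = 0.233).

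The 4 Acsm genes are neighbours, in the order Acsm5, Acsm2, Acsm1 and Acsm3, within 268 kb of chromosome 7 (chr7:119519463-119787513, GRCm38, GENCODE release 21), all on the plus strand. Acsm1 alone of the 4 passed the test, whereas all 4 passed with values divided by all reads, and Acsm2 passed with a trend of transcript length and GC content removed beside a replicate block. Their longest protein-coding transcripts were 61.4% to 65.1% identical in aligned parts, and the longest identical stretch of any pair was 26 bases. Between the Acss transcripts identity was 57.6% to 63.4% in aligned parts of unequal length, with at most 18 identical bases in a row.

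**Figure D2:**
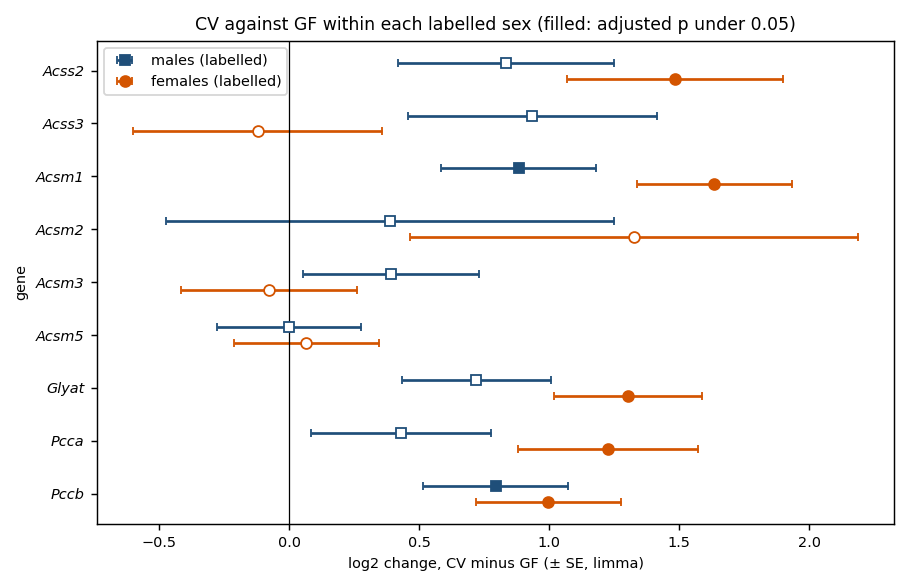
Log2 change of CV against GF (± SE, limma) of the 9 tested genes in M (squares) and F (circles), with filled symbols where the adjusted p was under 0.05. Filled circles mark Acss2, Acsm1, Glyat, Pcca and Pccb in F, and filled squares only Acsm1 and Pccb in M.

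Glyat encodes the mitochondrial enzyme that transfers benzoyl and short acyl groups from CoA to glycine. Males had values of 689, 1105 and 881 in GF and 2140, 1262 and 1112 in CV libraries. Females had 480, 737 and 466 in GF and 1257, 1368 and 1444 in CV libraries. The female groups were well apart, while the library labelled CV male 3 (1112) was barely above the highest GF male (1105). The log2 change was 1.30 ± 0.29 in F (2.47-fold, adjusted p = 0.00118, limma), 0.72 ± 0.29 in M (adjusted p = 0.068) and 1.01 ± 0.20 over both (2.02-fold, adjusted p = 0.000438). With the library labelled CV male 3 left out, the change in M was 0.91 (adjusted p = 0.0432), and without CV male 1 it was 0.44 (adjusted p = 0.24). It also passed in M without GF male 2 (0.89, adjusted p = 0.0417) or GF female 2 (0.72, adjusted p = 0.0472).

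Pcca and Pccb encode the subunits of propionyl-CoA carboxylase, the alpha subunit carrying the biotin. Pccb values were 226, 263 and 264 in GF males, 486, 410 and 412 in CV males, 127, 325 and 188 in GF females and 375, 402 and 409 in CV females. No CV library of either sex overlapped its GF group. CV male 1 (486) was the highest of the CV libraries, while CV male 2 (410) and the library labelled CV male 3 (412) lay close together. The log2 change of Pccb was 0.79 ± 0.28 in M (adjusted p = 0.0421, limma), 1.00 ± 0.28 in F (adjusted p = 0.00648) and 0.89 ± 0.20 over both (1.86-fold, adjusted p = 0.000972). In M its adjusted p was 0.107 without CV male 1 and 0.0662 with the library labelled CV male 3 left out, and among the libraries left out in turn the call was kept only for the 3 GF females. Pcca values were 252, 196 and 265 in GF males, 657, 231 and 211 in CV males, 186, 128 and 190 in GF females and 440, 354 and 375 in CV females. Pcca separated the female groups, but in males only CV male 1 was above the GF range. Its change was 1.23 ± 0.35 in F (2.34-fold, adjusted p = 0.00667) and 0.43 ± 0.35 in M (adjusted p = 0.364), and 0.83 ± 0.24 over both (1.78-fold, adjusted p = 0.00783). With the library labelled CV male 3 left out, the Pcca change in M was 0.72 (adjusted p = 0.147). Without CV male 1 the Pcca change in M was -0.09 and that over both sexes 0.57 (adjusted p = 0.0077).

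Counting libraries rather than fitting them, CV was above GF without overlap in Acsm1, Glyat and Pccb among M (22% of all tested genes did so) and in Acss2, Acsm1, Glyat, Pcca and Pccb among F (34% of all tested genes). Acsm1, Glyat and Pccb did so in both sexes, as did 18.6% of all tested genes. CV male 1 had the highest value of all 12 libraries in Acss2, Acsm1, Acsm3, Acsm5, Glyat, Pcca and Pccb. It exceeded the higher of the other CV males by 3.39 times in Acss2, 2.85 times in Pcca, 2.15 times in Acsm1, 2.13 times in Acsm3, 1.73 times in Acsm5, 1.70 times in Glyat and 1.18 times in Pccb.

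That library also had the lowest mitochondrial ribosomal RNA share, 1.39%, beside 1.51% to 1.81% in CV females, 5.89% in CV male 2 and 6.32% in the library labelled CV male 3. GF libraries had 9.36% to 16.4%. Among the CV libraries, Acss2, Acsm1 and Pcca were all lower in CV male 2 and the library labelled CV male 3 than in the other 4 libraries. Glyat and Pccb did not follow that order, since CV male 2 (1262) was above CV female 1 (1257) in Glyat, and Pccb values of 410 and 412 in these libraries were above the 375 to 409 of CV females. Of the variance of the share, 79.9% lay between the conditions, so its part in the changes and that of the condition cannot be told apart. With the share as a covariate 0 of the 9 genes passed in limma over both sexes (Acsm3, Acsm5 and Pcca had an unadjusted p under 0.05, with negative changes), 0 of 11782 genes passed (1985 unadjusted), and the standard errors of the 9 genes were 2.49 to 3.75 times larger.

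**Figure D3:**
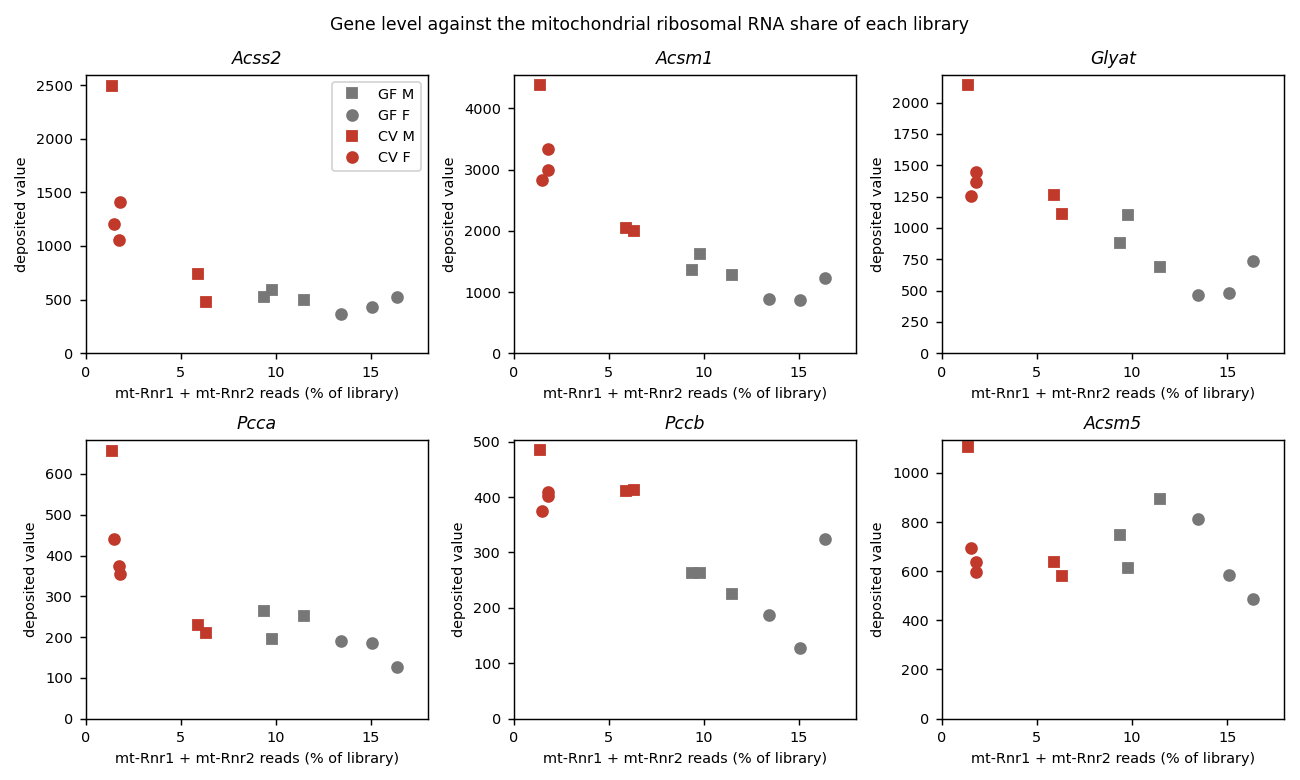
Deposited value of 6 of the genes against the percentage of reads from mt-Rnr1 and mt-Rnr2 in each of the 12 libraries, with GF in grey, CV in red, squares for M and circles for F. The conditions do not overlap on the horizontal axis, and within CV the 2 libraries labelled M at 5.89% and 6.32% sit below the other 4 libraries in Acss2, Acsm1 and Pcca.

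Scaling changed the size of the increases and, for some genes, the call. Dividing by all reads of a library raised the median log2 change of all genes from 0.07 to 0.62, and all 9 genes then passed as higher in CV over both sexes, at 0.59 (Acsm5) to 1.82 (Acsm1). Dividing by the reads outside the 7 abundant loci lowered that median to -0.38, and 4 genes passed: Acss2, Acsm1, Glyat and Pccb. Pcca did not pass there (0.37, adjusted p = 0.23, limma). The changes of Acss2, Acsm1, Glyat, Pcca and Pccb over both sexes were positive under each of these scalings. Those of Acss3 (-0.05), Acsm3 (-0.30) and Acsm5 (-0.43) were negative in the last of them, the first 2 above and Acsm5 below that median. In F only Acsm1 (1.01, adjusted p = 0.00185) and Glyat (0.68, adjusted p = 0.0147) passed there. Acss2 (0.86, adjusted p = 0.0619), Pcca (0.61, adjusted p = 0.167) and Pccb (0.38, adjusted p = 0.205) did not, and in M 0 of the 9 genes passed. With a trend of transcript length and GC content removed, Acss3 also passed over both sexes (0.84, adjusted p = 0.0479).

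**Figure D4:**
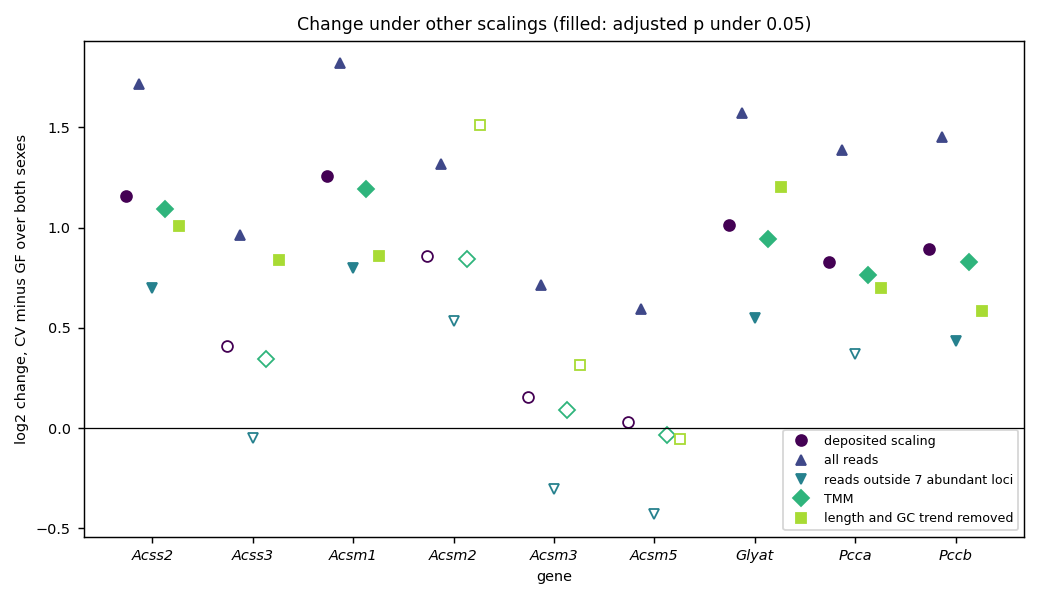
Log2 change over both sexes of the 9 tested genes under 5 treatments of the values, with filled symbols where the adjusted p was under 0.05. Acss2, Acsm1, Glyat, Pcca and Pccb stay above 0 in all 5, and all genes pass when values are divided by all reads.

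None of the 9 genes differed between M and F livers by limma over both conditions (1.16% of all genes called), within GF (1.63%) or within CV (0.0594%). The first and last of these count the library labelled CV male 3 as M, and when it was dropped 1.72% of all genes were called over both conditions and 0.654% within CV, still with 0 of the 9 genes. The nearest to a difference was Acss3, lower in M by 1.10 ± 0.34 on the log2 scale over both conditions (unadjusted p = 0.00493, adjusted p = 0.186). In GF its values of 20.0 to 86.0 in M and 77.1 to 247 in F overlapped, the log2 difference was -1.63 ± 0.48 (adjusted p = 0.0979), and DESeq2 gave an adjusted p of 0.0497. In limma Acss3 passed without GF male 1, both over the conditions (-1.37, adjusted p = 0.0361) and in GF (-2.18, adjusted p = 0.0225), and in GF without GF female 2 (-1.96, adjusted p = 0.0368). Glyat in GF was higher in M by 0.67 ± 0.29 (unadjusted p = 0.031, adjusted p = 0.228). Within CV 0 of the 9 genes had an unadjusted p under 0.05. For the difference between the changes in M and F, the estimates were -0.65 ± 0.59 for Acss2, -0.75 ± 0.42 for Acsm1, -0.58 ± 0.40 for Glyat, -0.80 ± 0.49 for Pcca and -0.20 ± 0.39 for Pccb, with adjusted p from 0.465 to 0.828. Without CV male 1, which had the highest CV values, this difference passed for Acss2 (-1.34, adjusted p = 0.0495) and Pcca (-1.32, adjusted p = 0.0475), and 291 of all genes passed rather than 0 (with all libraries 1382 genes had an unadjusted p under 0.05 in limma, edgeR gave 0 with its filter and 105 without it, and DESeq2 gave 23). In that fit the CV males were CV male 2 and the library labelled CV male 3, which had an Xist value of 2382 and 0 reads of the Y genes. Their mitochondrial ribosomal RNA shares, 5.89% and 6.32%, were the highest of the CV libraries. The part of either in this difference was not tested. With the library labelled CV male 3 dropped instead of CV male 1, 0 of the 9 genes and 4 of all genes passed. The median difference of the 9 genes was -0.16 there, -0.87 without CV male 1 and -0.58 with all libraries.

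On a per-length scale, values divided by the length in kilobases of the longest protein-coding transcript, Acsm1 stood first in both conditions, with 580 ± 140 in GF and 1406 ± 427 in CV livers (SD, n = 6). In GF it was followed by Acsm5 (231 ± 51.7), Glyat (220 ± 74.0) and Acss2 (166 ± 27.0), whose ranges overlapped. Pccb (99.99 ± 29.6), Pcca (78.1 ± 19.2) and Acsm3 (58.6 ± 13.1) came next, each within the range of its neighbour. In CV the order was Glyat (434 ± 111), Acss2 (420 ± 240), Acsm5 (238 ± 66.3), Pccb (179 ± 15.9), Pcca (146 ± 62.7) and Acsm3 (68.5 ± 29.5). Acss3 lay at 20.1 ± 17.2 and 20.9 ± 6.41. Acss1 (1.80 ± 0.888 in GF, 0.575 ± 0.824 in CV) and Acsm2 (1.56 ± 1.09 and 2.28 ± 1.16) were lowest.

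Some gene models overlap others on the opposite strand: Acss1 overlaps E130215H24Rik, Acss2 overlaps Ggt7, Gss and Acss2os, Acss3 overlaps Ppfia2 and Gm19007, Acsm1 overlaps Gm19950 and Gm45792, Acsm3 overlaps Eri2, Acsm5 overlaps Pdilt and Pcca overlaps Ggact and Gm49259. The library kit keeps strand, but whether the counting used it was not given in the sources used here, so reads of these pairs may be mixed. On the same strand, where keeping strand would not separate the reads, Acss2 overlaps Mipep-ps and Gm20637, Acss3 overlaps Gm18040 and Gm19181, and Pcca overlaps Gm49260. Acsm2, Glyat and Pccb overlap no other gene. Their positions (GRCm38, GENCODE release 21) are chr7:119554340-119600690, chr19:12633308-12653911 and chr9:100982032-101034898, and Acss2 spans chr2:155517948-155585724, Acsm1 chr7:119607026-119662515 and Pcca chr14:122534324-122891100.

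For each tested gene the most similar profile among 11151 other named genes was sought, as the root mean square difference of log2 values centred on each gene's mean over the 12 libraries. The nearest were Ramac for Pccb (0.0961), Ikbkg for Acsm5 (0.113), Acox2 for Pcca (0.117), Sord for Glyat (0.117) and Idh3b for Acsm1 (0.125). The differences were larger for Acss2 (Cyb5r3, 0.224), Acsm3 (Ss18, 0.228), Acss3 (Tbkbp1, 0.352) and Acsm2 (Pigw, 0.574). They were not scaled to how much each gene varied, and the SD of the log2 profile was 0.835 for Acss2 and 0.321 for Acsm5.

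Genes that act before and after these enzymes were counted in lists over both sexes, against 32.3% of all genes called higher and 28.7% called lower. In a list around the branch from methylmalonyl-CoA to succinyl-CoA, downstream of Pcca and Pccb, 9 of 11 rose and 0 fell (median log2 change 0.83, all genes 0.07). Besides the enzymes of the branch it held genes of vitamin B12 handling. It also held Sucla2, Suclg1 and Suclg2, which act on succinyl-CoA after the branch. Suclg1, a subunit of succinate-CoA ligase, rose by 2.11 ± 0.25 (SE; adjusted p = 4.78e-06, limma), Mmadhc, which handles the vitamin B12 cofactor, by 1.88 ± 0.20 and Sucla2 by 1.58 ± 0.18. Of the branched-chain amino acid enzymes that supply propionyl-CoA and acetyl-CoA, 8 of 11 rose and 1 fell (median 0.94). Hsd17b10 rose by 1.54 ± 0.21, Acad8 by 1.48 ± 0.20 and Bckdha by 1.39 ± 0.17, whereas Bcat2, the mitochondrial branched-chain transaminase, fell (-0.97 ± 0.30, adjusted p = 0.0109). Without GF male 2, GF female 2 or CV male 1 the count of lower genes in this list was 2. Among the genes of biotin handling and other biotin carboxylases 4 of 7 rose. Of these, Btd (1.46 ± 0.21), Mccc2 (1.34 ± 0.19) and Pcx (1.25 ± 0.24) had the smallest adjusted p. Acaca, which makes malonyl-CoA for fatty acid synthesis, fell (-0.75 ± 0.16, adjusted p = 0.000662, limma). Without CV male 1 the lower genes of this list numbered 2. Hlcs, the ligase that attaches biotin to Pcca, did not pass (0.01, adjusted p = 0.965).

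Beta-oxidation, which consumes activated acids, other acyl-CoA synthetases and the synthesis and turnover of coenzyme A were counted next. In short- and medium-chain beta-oxidation 11 of 11 genes were higher in CV (median 1.84). Those with the smallest adjusted p were Echs1 (1.98 ± 0.19, adjusted p = 9.34e-07, limma), Acads, the dehydrogenase of butyryl-CoA (2.83 ± 0.28), and Hadh (1.84 ± 0.21). Mean Acads values went from 168 to 842 in M and from 114 to 1126 in F. Of the other acyl-CoA synthetases, 7 of 10 tested of 12 rose and 0 fell (median 0.90): Acsl5 by 2.34 ± 0.30, Acsf3, which activates malonate, by 1.60 ± 0.25, and Slc27a5, the bile acid and very long-chain synthetase, by 1.54 ± 0.24. Acsm4, the remaining gene of the Acsm family, had 0 reads in all 12 libraries. In coenzyme A synthesis and turnover 8 of 10 rose (median 0.94), with Vnn1 (2.69 ± 0.22), Coasy, which completes the CoA molecule (2.02 ± 0.24), and Nudt19 (1.48 ± 0.20). Ppcdc, an earlier step of the same synthesis, fell (-1.69 ± 0.22, adjusted p = 9.38e-06).

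Glycine, the partner of Glyat, is made and used by a list in which 7 of 10 tested genes of 12 rose and 0 fell (median 1.20). Agxt, which makes glycine from glyoxylate, rose by 1.81 ± 0.21 (adjusted p = 4.87e-06, limma), Gcsh of the glycine cleavage system by 1.80 ± 0.25, and Gnmt, which methylates glycine, by 1.58 ± 0.26. The other transferases that join acyl groups to amino acids went in different directions. Acnat2 rose (1.36 ± 0.49, adjusted p = 0.0229), a call that was lost without GF male 2, and Acnat1 fell (-1.38 ± 0.20, adjusted p = 2.56e-05). Baat, the bile acid conjugating enzyme (0.28 ± 0.19, adjusted p = 0.211), and Keg1, a relative of Glyat (0.03 ± 0.35, adjusted p = 0.941), did not pass, and Glyatl3 had 0 reads.

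Beside Acss2, the supply and use of cytosolic acetyl-CoA showed 3 of 7 genes higher and 0 lower (median 0.74), with 5 higher without GF female 2 or CV male 2 and 7 with values divided by all reads. Acat2 (2.07 ± 0.29), Me1 (1.79 ± 0.26) and Slc25a1, the citrate carrier (1.71 ± 0.26), passed, but Acly, the other source of cytosolic acetyl-CoA, did not (0.56, adjusted p = 0.173, limma). Among carriers and receptors of short-chain acids, the 3 tested of 9 rose: Slc22a7 (2.50 ± 0.36), Slc16a7 (1.54 ± 0.28) and Slc16a1, a monocarboxylate transporter (1.39 ± 0.26). The receptor genes Ffar2, Ffar3, Hcar2 and Olfr78 had 5, 0, 7 and 1 reads over all 12 libraries, and Slc5a8 and Slc5a12 had 0.

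**Figure D5:**
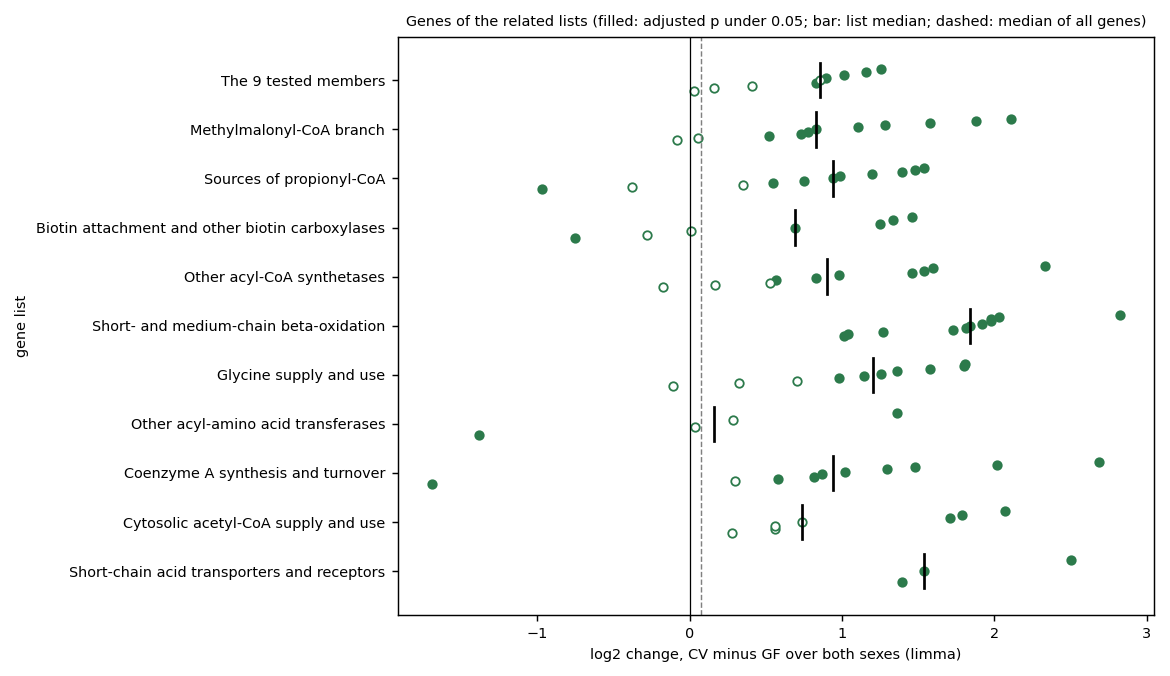
Log2 change over both sexes of each tested gene in the set and in the 10 related lists (points, filled where the adjusted p was under 0.05), with the median of each list (black bars) and of all genes (dashed line, 0.07). All 11 beta-oxidation genes lie above 1, and the filled points below 0 are Bcat2, Acaca, Acnat1 and Ppcdc.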

How the data were processed

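Liver RNA of 12 C57BL/6 mice, 3 per group of condition (GF, CV) and labelled sex, was sequenced as stranded mRNA libraries, 1 per mouse, and groups and replicate numbers came from the sample titles. The submitters' processing notes name HTSeq 0.6.1p1, DESeq2 and build GRCm38. The aligner, the annotation release and the use of strand in counting are not given in the sources used here. The deposited values are a normalized expression signal: the authors divided the gene counts of each library by 1 size factor. In every library 100% of values were whole multiples of 1 read (tolerance 0.01 reads), so reads were recovered. The value of 1 read equalled the inverse of the DESeq2 size factor over 12512 genes.

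Tests used limma 3.58.1 on log2(value + 1), which understates the change of low genes, for the 11782 genes with a mean value of at least 10, with 1 mean per group, a variance trend, two-sided tests and Benjamini-Hochberg adjustment at 0.05. Alternatives were pseudocounts 0.5 and 5, other minimum values, other scalings, edgeR 4.0.16, DESeq2 1.42.0 and voom on the recovered reads, a replicate block, a length and GC trend, the mitochondrial ribosomal RNA share and leaving out each library. The limma and edgeR fits were also run on simulated data with few changed genes, in both directions, and no shift of the abundant loci. That run checked the code only, and it cannot test the scaling of these libraries. Python 3.11.15 and R 4.3.3 were used. GENCODE release 21 gave positions and lengths, and RefSeq on GRCm38.p6 the promoters.

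The genes and lists were chosen with earlier results of these data known. Genes named from the lists are up to 3 per direction with the smallest adjusted p over both sexes, all genes of lists of 5 or fewer, and, outside that rule and after seeing values, Hlcs, Acly, Acsm4 and the untested carriers and receptors. For each tested gene of the set the nearest profile was named. An absent signal allows up to 3 reads, which covers counting error only.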

Additional observations from a re-analysis of the deposited data

Results flagged for a closer look

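Among 20 groups of 6 libraries, formed by each of the 10 genes in GF and in CV with both sexes together, 5 had a highest library whose gap to the next was large for the range of the group. For independent groups, each from 1 normal distribution, the rule would flag about 1 in 20. These groups share libraries and pool both sexes, so the 5 cannot be set against that rate. CV male 1 was that library for Acsm5 (1104, next 692), Glyat (2140, next 1444) and Pccb (486, next 412). Acss3 in GF female 3 had 247 against 99.6 in the next library. Acss1 in CV male 2 had 7.95 against 1.81, on 10 reads. The cause of these values was not tested.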

How the results depend on the processing

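Over both sexes the count of 5 of 9 genes higher in CV remained 5 without each library in turn. It was 9 with values divided by all reads and 0 with the mitochondrial ribosomal RNA share as a covariate. In M the count of 2 was less stable. It was 0 without the filter on low values, 0 with scaling to reads outside the abundant loci, 0 with the ribosomal share, 1 with TMM log2 CPM, 1 in a fit of the M libraries alone and 1 after removal of the length and GC trend. It was 4 with scaling to all reads and 4 in DESeq2. Without single libraries it ranged from 0 to 3: 0 without GF male 3, CV male 1, CV female 2 or CV female 3. It was 3 without GF female 2 or the library labelled CV male 3. In F the count of 5 was 2 with scaling outside the abundant loci and 0 with the ribosomal share, and 5 to 6 without single libraries. The difference between M and F counted 0 to 2 genes without single libraries. M against F over both conditions counted 1 gene in edgeR without a filter and 0 to 1 without single libraries. M against F in GF counted 1 in DESeq2, with scaling to all reads, in edgeR without a filter and with the replicate block, and 0 to 1 without single libraries. The causes were not tested.

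With the replicate block the counts were 5, 2 and 5 over both sexes, in M and in F. Among the 9 genes, Acss3 in GF (-1.63, adjusted p = 0.043, limma) was the only gene whose call it changed. Deviations of same-numbered libraries correlated from -0.228 to 0.403, over 0.1 in all 3 pairs only for CV males with CV females, where 0 of the 9 genes passed with or without the block.

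Values that changed sign lay mostly near 0, and none of the 58 passed the test in the alternative. Over both sexes they were Acsm5 with TMM (-0.034), edgeR (-0.0024), voom (-0.041), scaling outside the abundant loci (-0.43) and removal of the length and GC trend, with or without the block (-0.052), and Acss3 (-0.050) and Acsm3 (-0.30) with scaling outside the abundant loci. In M, Acsm5 was 0.31 with scaling to all reads, 0.0015, 0.022 and 0.11 in edgeR with TMM, RLE and no filter, and 0.04 in DESeq2. In F, Acsm5 was -0.55 with scaling outside the loci, -0.0087 with TMM, -0.0063 and -0.0020 in edgeR with TMM and RLE, -0.012 with voom and -0.054 with that trend removed. Acss3 in F was 0.68 and Acsm3 0.73 with scaling to all reads, Acss3 was 0.47 and Acsm3 0.14 with that trend removed, and Acsm3 was 0.053 in edgeR without a filter.

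With the ribosomal share as a covariate the values over both sexes that changed sign were -1.48 for Acss2, -0.61 for Acss3, -0.070 for Acsm1, -1.80 for Acsm3, -1.45 for Acsm5, -0.0082 for Glyat and -1.66 for Pcca. Those of Acsm2 and Pccb stayed positive. In M the values that changed sign were -0.75 for Acss2, -0.78 for Acsm3 and -1.07 for Pcca. In F they were -2.21 for Acss2, -0.23 for Acsm1, -2.003 for Acsm5, -0.12 for Glyat and -2.26 for Pcca. Already negative without the covariate were Acsm5 in M (-0.89 with it) and Acss3 (-1.54) and Acsm3 (-2.82) in F.

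Without single libraries the values over both sexes ranged from -0.11 to 0.13 for Acsm5 and from -0.078 to 0.36 for Acsm3. In M they ranged from -0.074 to 0.94 for Acsm2, -0.078 to 0.79 for Acsm3, -0.29 to 0.18 for Acsm5 and -0.094 to 0.72 for Pcca. In F the ranges were -0.46 to 0.37 for Acss3, -0.20 to 0.017 for Acsm3 and -0.10 to 0.27 for Acsm5. Depth limits Acss1 and Acsm2, at 0 to 10 and 0 to 35 reads per library.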
